A study of Mus musculus with 8 samples.

Results

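The genes described here are the enzymes that make cholesterol, together with SREBP2, the proteins that control it and a few of its other targets. They were 28 genes listed by name and matched to the Ensembl identifiers of the count tables, out of 41388 features, and all 28 were among the 12270 genes that passed the filter on low counts. RNA was sequenced from the livers of db/db mice, which lack a working leptin receptor and become obese and diabetic. The mice were littermates labelled strain C57B/6J, and were male per the study's methods. They were assigned at random at 5 weeks of age to a tail vein injection of adenovirus carrying either GFP (AdGFP, the control, n = 4) or NAMPT (AdNAMPT, n = 4), and the labels give 10 weeks as their age. NAMPT is the rate-limiting enzyme of NAD+ salvage, and the comparison asks what its overexpression does to gene expression in the diabetic liver.

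Both groups carried the db/db defect and an adenovirus, so neither is an untreated or a lean liver. The libraries held 12006713 to 19879814 counts. Nampt itself measured 102 to 153 CPM (counts scaled to a common library total) in the AdGFP livers and 120 to 178 CPM in the AdNAMPT livers, and the groups overlapped. Its fitted difference was 0.08 on the log2 scale (SE 0.15, limma, Benjamini-Hochberg adjusted p = 0.915), so the name AdNAMPT stands for the libraries that carry this label, here and for every direction given. Hepatocyte markers (5 of 6 listed genes were matched) summed to between 88918 and 114590 CPM in the 8 livers, while of the 4 adipocyte markers Adipoq, Lep and Plin1 had at most 4 reads in any library and Retn 1 to 24. In whole liver, fewer cells of a type and less RNA per cell cannot be told apart.

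Cholesterol is built from acetyl units through mevalonate, isoprenoids, squalene and lanosterol. When sterols in the endoplasmic reticulum run low, the escort protein SCAP carries SREBP2 to the Golgi, where proteases free its active part to enter the nucleus and switch on the enzymes of the route. When sterols are plentiful, the INSIG proteins hold SCAP back, which is why the enzyme mRNAs of a liver tend to move as a block.

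The control regions of these genes are shown first, because SREBP2 acts at such regions together with the CCAAT-binding factor NF-Y. Of the 28 genes, 24 had an entry in the RefSeq promoter table (GRCm38.p6). Fdps, Sqle, Fdft1 and Stard4 had none. Each entry runs from 250 bases before to 50 bases after an annotated start. The windows printed belong to Hmgcs1, at the entry to the mevalonate route (chr13:119690101-119690400, plus strand), to Mvd, the enzyme with the widest spread among the livers (chr8:122443373-122443672, minus strand), to Insig1, the sterol-regulated retention gene (chr5:28071162-28071461, plus strand), and to Srebf2, which encodes SREBP2 (chr15:82147019-82147318, plus strand). Capitals mark CCAAT, or ATTGG where it lies on the other strand, and the sterol element TCACNCCAC.
Hmgcs1: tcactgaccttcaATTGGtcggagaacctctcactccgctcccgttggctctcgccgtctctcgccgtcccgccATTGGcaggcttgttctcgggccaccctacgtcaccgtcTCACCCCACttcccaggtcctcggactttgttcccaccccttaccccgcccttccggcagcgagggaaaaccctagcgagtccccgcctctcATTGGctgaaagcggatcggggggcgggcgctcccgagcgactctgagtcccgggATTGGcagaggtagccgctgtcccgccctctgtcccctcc
Mvd: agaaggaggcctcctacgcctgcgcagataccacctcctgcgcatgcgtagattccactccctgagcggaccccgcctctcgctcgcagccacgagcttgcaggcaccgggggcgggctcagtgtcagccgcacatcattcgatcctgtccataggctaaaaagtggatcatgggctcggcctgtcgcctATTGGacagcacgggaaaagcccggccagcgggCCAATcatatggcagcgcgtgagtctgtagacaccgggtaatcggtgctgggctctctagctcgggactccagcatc
Insig1: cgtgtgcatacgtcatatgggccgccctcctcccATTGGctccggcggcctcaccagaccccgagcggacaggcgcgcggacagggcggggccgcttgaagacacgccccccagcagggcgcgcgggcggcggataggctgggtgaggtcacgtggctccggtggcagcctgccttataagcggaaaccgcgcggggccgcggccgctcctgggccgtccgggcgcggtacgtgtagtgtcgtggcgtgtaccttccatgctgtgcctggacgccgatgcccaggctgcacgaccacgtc
Srebf2: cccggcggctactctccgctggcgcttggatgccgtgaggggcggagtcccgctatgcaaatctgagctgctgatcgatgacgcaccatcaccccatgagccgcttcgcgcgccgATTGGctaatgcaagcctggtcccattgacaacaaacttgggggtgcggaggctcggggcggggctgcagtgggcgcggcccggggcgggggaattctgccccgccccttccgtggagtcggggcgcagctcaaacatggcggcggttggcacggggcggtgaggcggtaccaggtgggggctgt

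CCAAT was found on either strand in the windows of 21 of the 24 genes (87.5%), against 41.1% of all 27025 genes in the table and 42.8% of the 9486 tested genes that have an entry. The exceptions were Aacs, Acat2 and Scap. Hmgcs1 held 4 copies, at positions -237, -176, -45 and 11 from the start, and its window was the only one of the 24 genes' with the letters TCACNCCAC, at position -137 (1.44% of all genes). Mvd held 2 copies of CCAAT, at -60 and -27, Insig1 held 1 at -216 and Srebf2 held 1 at -135. The GC box GGGCGG was present for 21 of the 24 (87.5%, against 67.3% of tested genes), and the E-box CACGTG for 5 (20.8%, against 11.8%). All 4 motifs were searched on both strands, and a gene with several entries was counted once. These are exact matches of letters in a fixed window and say nothing of binding. A near match was not counted or marked, such as tcaccccat in the Srebf2 window, which differs from TCACNCCAC in the last letter.

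None of the 28 genes differed between the groups at an adjusted p of at most 0.05 (limma, Benjamini-Hochberg over all genes tested), a threshold that 0.277% of all genes passed. At an unadjusted p under 0.05 the count was 1 of 28 (Aacs), against 9.7% of all genes. AdGFP and AdNAMPT values did not separate fully for any of the 28, against 4.79% of all genes for which they did. Log2 fold changes, AdNAMPT over AdGFP, ran from -0.39 for Fdft1 to 0.78 for Aacs, with 10 above and 18 below 0, and with scaling by library size only 5 of the 28 changed side. Their median was -0.03, beside 0.00 over all genes. A p that misses the threshold does not show equal levels. The 95% intervals of 26 genes lay within 1 log2 unit of 0 on either side, and those of Hmgcs1 (-1.04 to 0.40) and Aacs (0.19 to 1.36) reached beyond it.

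**Figure D1:**
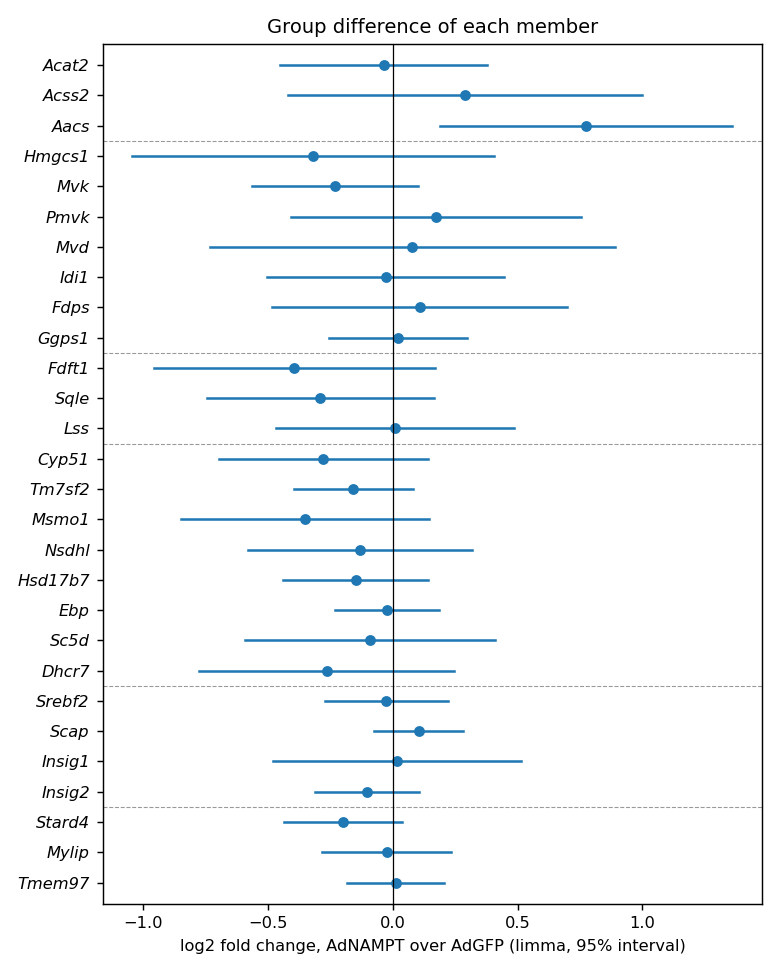
Log2 fold change (AdNAMPT over AdGFP, x axis) of each of the 28 genes (y axis, grouped by role from acetyl supply at the top to sterol transport and turnover at the bottom). Points are limma estimates and bars their 95% intervals. The bar of Aacs, from 0.19 to 1.36, is the only one that stays clear of 0.

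The clearest feature of these genes was their spread among the AdNAMPT livers. The summed level differed little among the AdGFP livers, and the AdNAMPT livers lay on both sides of it. Summed over the 28 genes, the AdGFP livers measured 3814, 3831, 3670 and 3870 CPM, a 1.05-fold range. Single genes varied more than their sum in these controls, up to 2.42-fold for Aacs after scaling. The AdNAMPT livers measured 2344, 3278, 4796 and 5292 CPM, a 2.26-fold range. Replicates 1 and 2 were thus below every AdGFP liver and replicates 3 and 4 above every one. The group means, 3796 ± 87.6 CPM and 3928 ± 1360 CPM (SD, n = 4 each), differed by less than the AdNAMPT spread.

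**Figure D2:**
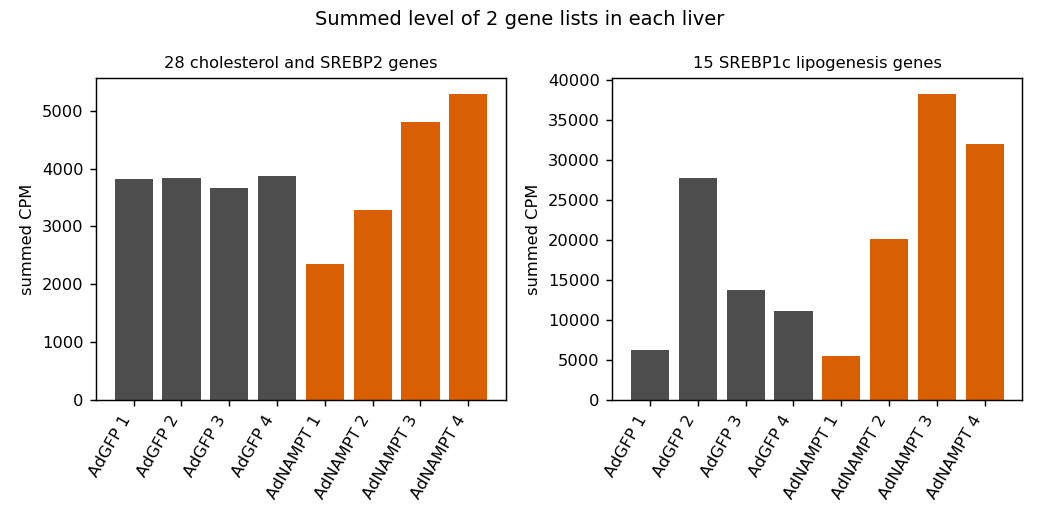
Summed CPM (y axes, from 0, on separate scales) of the 28 genes (left) and of 15 fatty acid synthesis genes under SREBP1c (right) in each of the 8 livers (x axes, grey AdGFP, orange AdNAMPT). On the left the 4 AdGFP bars run from 3670 to 3870 and the AdNAMPT bars from 2344 to 5292, while on the right the AdGFP bars run from 6306 to 27682.

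Gene by gene, on CPM scaled by the trimmed mean of M-values (TMM), the AdNAMPT range enclosed the whole AdGFP range for 18 of the 28 genes, against 26% of all genes. The reverse held for 1 (Mylip), against 14.2%. The SD of log2 values was larger in AdNAMPT for 23 of 28, against 59.6% of all genes. Median SDs over the 28 genes were 0.19 in AdGFP and 0.57 in AdNAMPT, beside 0.16 and 0.18 over all genes. The highest of the 8 livers exceeded the lowest by a median of 2.44-fold over the 28 genes and 1.47-fold over all genes. Without AdNAMPT replicate 4 the enclosing count was 9 of 28 (17.1% of all genes), and without any other library it was 13 to 20. The count of larger SDs was 22 to 25 whichever library was left out. These mRNAs move together, so the 28 genes are not 28 separate observations of a spread that rests on 4 livers a group, and it was not tested.

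AdNAMPT replicate 1 was below every AdGFP liver for 22 of the 28 genes (29.7% of all genes) and was the lowest of all 8 livers for 22 (22.7%). The 6 genes outside this pattern were Aacs, Ggps1, Srebf2, Scap, Insig2 and Mylip. AdNAMPT replicate 2 was below every AdGFP liver for 19 (21.3%). AdNAMPT replicate 3 was above every AdGFP liver for 10 (23.1%) and replicate 4 for 19 (22.4%), with replicate 4 the highest of the 8 for 15 (12.5%). For 7 genes, all of them enzymes, replicates 1 and 2 were below and 3 and 4 above every AdGFP liver: Acat2, Hmgcs1, Pmvk, Mvd, Fdps, Lss and Nsdhl. The share of all genes with that arrangement was 0.856%.

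**Figure D3:**
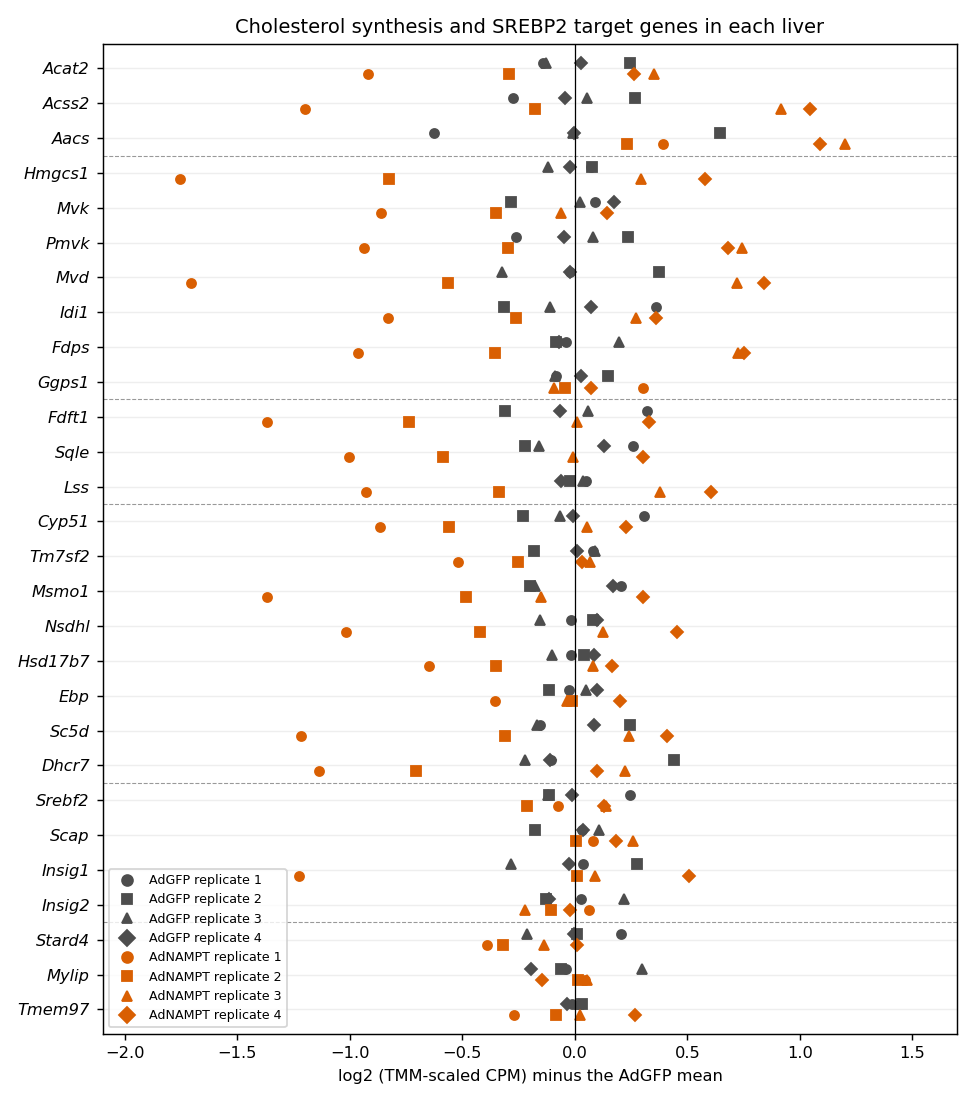
Log2 TMM-scaled CPM of each of the 28 genes (y axis, grouped by role) in each liver, minus the AdGFP mean (x axis). Grey symbols are AdGFP livers, orange symbols AdNAMPT livers, and the shape gives the replicate. The orange circles (AdNAMPT replicate 1) lie left of all grey symbols for 22 genes, and the orange diamonds (replicate 4) right of them for 19.

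Other measures moved with these livers. AdNAMPT replicates 1 to 4 held 12006713, 14644761, 19879814 and 16964500 counts. With every library thinned to the smallest one, again none of the 28 genes passed the adjusted threshold (limma) and 1 had an unadjusted p under 0.05. The 6 Kupffer cell and macrophage markers summed to 210 to 264 CPM in AdGFP and to 154, 172, 241 and 254 CPM in AdNAMPT replicates 1 to 4. Of those 6 markers, 5 were below every AdGFP liver in replicate 1 and 4 in replicate 2, and none was at 0 in any library. The part of depth and of these cells in the spread was not tested. AdNAMPT replicate 1 also had the lowest quality weight in the fit (0.44, where the others had 0.81 to 1.41), so the fold changes lean on it less than plain means do.

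Acetyl units enter the route through Acat2, Acss2 and Aacs. Acat2, the cytosolic thiolase that joins acetyl-CoA units, measured 54.8, 69.2, 55.6 and 62.0 CPM in AdGFP and 34.6, 51.9, 83.8 and 76.2 CPM in AdNAMPT. Acss2, which makes acetyl-CoA from acetate, measured 223, 314, 282 and 264 CPM in AdGFP and 128, 251, 554 and 586 CPM in AdNAMPT. In AdNAMPT replicates 3 and 4 Acss2 stood well above every control, and in replicate 1 well below. Over the group the difference was 0.29 on the log2 scale (SE 0.32, limma, adjusted p = 0.821). Acss2 shares 395 exonic bases with Gss on the other strand, and whether the counting used strand is not given in the sources used here.

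Aacs, which activates the ketone body acetoacetate for lipid synthesis, was the gene with the largest group difference of the 28. It measured 38.1, 88.8, 58.7 and 58.9 CPM in AdGFP and 83.6, 72.4, 147 and 131 CPM in AdNAMPT. AdGFP replicate 2 overlapped the AdNAMPT range, and the other AdGFP livers were below all 4 AdNAMPT livers. The difference was 0.78 on the log2 scale with an SE of 0.27 (limma, Benjamini-Hochberg adjusted p = 0.425). Without AdGFP replicate 2 the groups did not overlap for Aacs alone of the 28, against 8.96% of all genes in that setting. Over the 20 alternative settings (limma, edgeR or DESeq2), the smallest adjusted p of any of the 28 genes lay between 0.195 and 0.707. Aacs was also 1 of the 5 genes whose SD of log2 values was not larger in AdNAMPT (0.49) than in AdGFP (0.52).

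The mevalonate segment showed the widest spread. Hmgcs1, the cytosolic synthase that forms HMG-CoA for sterol synthesis, measured 303, 294, 267 and 286 CPM in AdGFP and 92.6, 171, 384 and 453 CPM in AdNAMPT. The AdGFP livers spanned 1.14-fold and the AdNAMPT livers 5.05-fold, with no AdNAMPT liver inside the control range. The AdGFP mean was 287 ± 15.5 CPM and the AdNAMPT mean 275 ± 171 CPM (SD, n = 4). On the log2 scale limma put the difference at -0.32 (SE 0.33, adjusted p = 0.803).

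Mvd, the decarboxylase that yields isopentenyl diphosphate, spanned 5.83-fold among the AdNAMPT livers, the widest of the 28. Its levels were 22.7, 28.8, 18.5 and 22.8 CPM in AdGFP and 7.66, 16.4, 41.2 and 43.3 CPM in AdNAMPT. Replicates 3 and 4 were alike and above every control, while replicates 1 and 2 differed from each other and were below. Limma put its difference at 0.08 (log2) with the largest SE of the 28, 0.37 (adjusted p = 0.970).

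The enzymes between and after them followed the same arrangement to different degrees. Mvk, the mevalonate kinase, measured 24.5, 18.3, 23.5 and 26.2 CPM in AdGFP and 13.7, 19.0, 24.0 and 26.8 CPM in AdNAMPT, so that replicate 1 was below and replicate 4 just above the controls as deposited, and replicates 1 and 2 below them after TMM scaling. Pmvk, which adds the next phosphate, measured 34.7, 47.2, 44.0 and 40.3 CPM in AdGFP and 23.5, 35.5, 75.5 and 69.8 CPM in AdNAMPT. Fdps, which makes farnesyl diphosphate, measured 77.0, 71.9, 90.7 and 75.6 CPM in AdGFP and 43.9, 64.9, 142 and 140 CPM in AdNAMPT. For Pmvk and Fdps replicate 1 was the lowest liver, and replicates 3 and 4 were well above every control. Their log2 fold changes were 0.17 (SE 0.26) and 0.11 (SE 0.27). Idi1, the isomerase that supplies dimethylallyl diphosphate, was the least abundant of the 28 per length (1.26 ± 0.267 RPKM, which is CPM divided by length in kilobases, in AdGFP, SD, n = 4), with 32 reads in its thinnest library.

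Ggps1 leaves the sterol route to make geranylgeranyl diphosphate for protein prenylation, and it did not follow the enzymes around it. It measured 4.24, 4.80, 4.24 and 4.60 CPM in AdGFP and 6.00, 4.58, 4.58 and 4.95 CPM in AdNAMPT. AdNAMPT replicate 1, the lowest liver for 19 of the 21 enzymes, was the highest for Ggps1. Its log2 fold change was 0.02 (SE 0.13). The counts behind these values are low, and Ggps1 shares 170 exonic bases with Arid4b on the other strand.

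Squalene and lanosterol formation is the first segment committed to sterols. Fdft1, squalene synthase, measured 131, 81.9, 110 and 100.8 CPM in AdGFP and 44.1, 66.3, 115 and 139 CPM in AdNAMPT. Sqle, the epoxidase that adds the oxygen, measured 72.7, 50.3, 54.6 and 66.7 CPM in AdGFP and 32.9, 42.5, 65.7 and 78.6 CPM in AdNAMPT. For both enzymes replicates 1 and 2 were below every control, and replicate 4 above every control by a small margin. Fdft1 had the most negative log2 fold change of the 28, -0.39 (SE 0.26, limma, adjusted p = 0.663), and Sqle followed in this segment with -0.29 (SE 0.21). Fdft1 shares 767 exonic bases with Ctsb on the other strand, and Ctsb had 6557 to 13027 reads a library. Lss, the cyclase that closes the sterol rings, measured 62.9, 57.9, 62.5 and 58.5 CPM in AdGFP, a 1.08-fold range after scaling, and 34.6, 50.5, 85.9 and 97.1 CPM in AdNAMPT, a 2.89-fold range. Lss was thus among the tightest genes in the controls and not among the AdNAMPT livers, with a log2 fold change of 0.01 (SE 0.22).

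All 8 enzymes from lanosterol to cholesterol had AdNAMPT replicate 1 as the lowest of the 8 livers, and all 8 had a larger SD in AdNAMPT. All 8 fitted log2 fold changes were below 0, from -0.35 to -0.02, and none passed the test; with library size only in place of TMM, Ebp was at 0.056. Cyp51, the lanosterol demethylase, measured 192, 128, 149 and 155 CPM in AdGFP and 92.4, 111, 176 and 191 CPM in AdNAMPT. Msmo1, which oxidises the methyl groups at carbon 4, measured 345, 252, 266 and 339 CPM in AdGFP and 126, 224, 293 and 387 CPM in AdNAMPT, with the most negative fold change of the 8 (SE 0.23, limma, adjusted p = 0.661). Nsdhl, which acts beside Msmo1, measured 72.7, 75.1, 66.4 and 79.1 CPM in AdGFP and 39.4, 57.6, 87.2 and 106 CPM in AdNAMPT. On the TMM scale, Nsdhl was the one of the 8 with all of its AdNAMPT livers outside the control range, a pair on each side.

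Sc5d and Ebp were the most abundant enzymes of the route per length. Sc5d, which adds the double bond at carbon 5, reached 289 ± 36.1 RPKM in AdGFP and 289 ± 123 RPKM in AdNAMPT (SD, n = 4 each), near-equal means with unequal spread. Its levels were 605, 771, 601 and 717 CPM in AdGFP and 314, 571, 865 and 938 CPM in AdNAMPT. Ebp, the sterol isomerase, measured 279, 253, 295 and 305 CPM in AdGFP and 240, 295, 301 and 343 CPM in AdNAMPT, a 1.47-fold range over the 8 livers after scaling, the narrowest of this segment. Dhcr7, the reductase of the last step, measured 57.9, 81.7, 53.6 and 58.0 CPM in AdGFP and 30.6, 40.1, 79.0 and 69.97 CPM in AdNAMPT. AdGFP replicate 2 was the highest liver for Dhcr7, so the AdNAMPT range did not enclose the control range. Hsd17b7, a ketoreductase, had 87.9 to 100.0 CPM in AdGFP and 65.0 to 111 CPM in AdNAMPT, and Tm7sf2, a sterol reductase, 143 to 180 CPM and 127 to 191 CPM. Tm7sf2 shares 532 exonic bases with Vps51 on the same strand, so reads there cannot be assigned by strand.

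**Figure D4:**
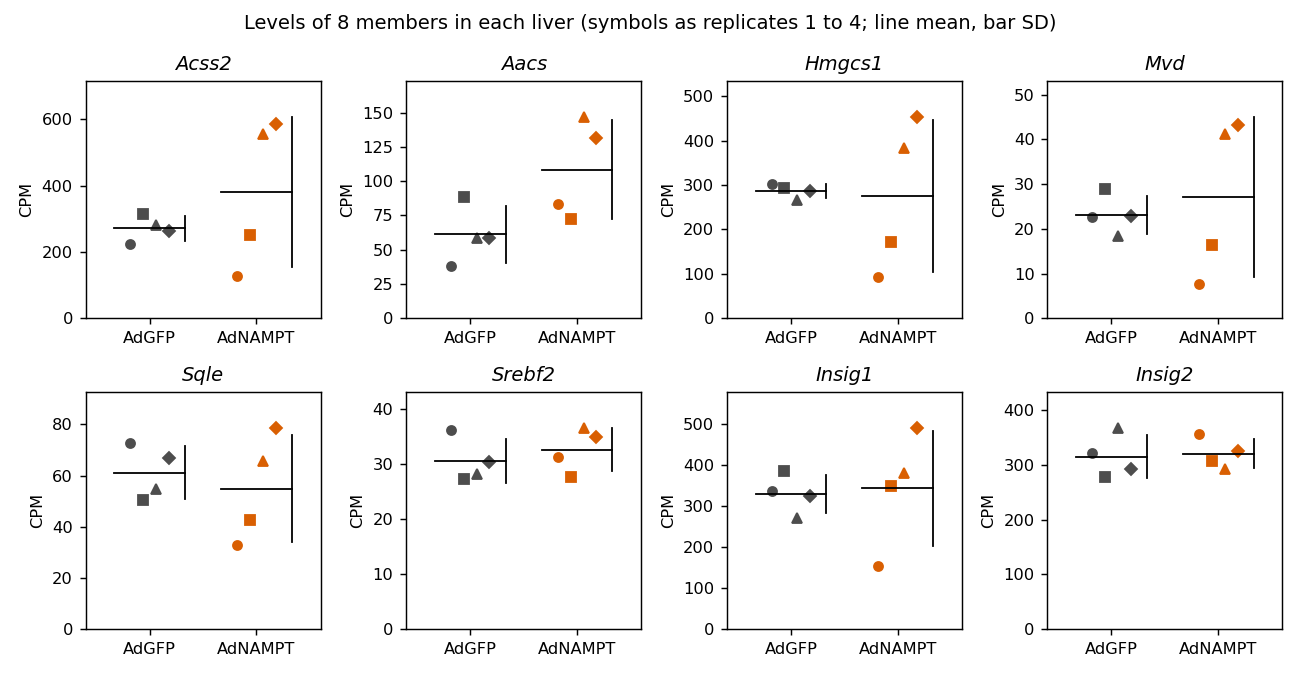
CPM (y axes, from 0, separate scales) of 8 of the genes in each AdGFP (grey) and AdNAMPT (orange) liver, with symbols for replicates 1 to 4, the group mean as a line and the SD as a bar (n = 4). For Hmgcs1 the AdNAMPT livers run from 92.6 to 453 CPM around an AdGFP range of 267 to 303 CPM, while for Srebf2 and Insig2 both groups fill the same narrow band.

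The regulators did not share the spread of the enzymes, apart from Insig1. Srebf2 measured 36.2, 27.3, 28.2 and 30.4 CPM in AdGFP and 31.4, 27.7, 36.5 and 35.0 CPM in AdNAMPT. The SD of its log2 values was 0.17 in both groups, and on the log2 scale the groups differed by -0.03 (SE 0.11, limma, adjusted p = 0.965). Scap, the sterol sensor that escorts SREBP2, measured 79.7, 66.7, 84.4 and 80.4 CPM in AdGFP and 89.5, 82.2, 101.3 and 93.0 CPM in AdNAMPT, with a log2 fold change of 0.10 (SE 0.08, limma, adjusted p = 0.733). These are mRNA levels, and the cleavage and nuclear entry that set SREBP2 activity were not measured.

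Insig1, whose mRNA is itself a target of SREBP2, measured 338, 386, 272 and 326 CPM in AdGFP and 153, 349, 382 and 492 CPM in AdNAMPT. AdNAMPT replicate 1 was well below the lowest control, replicates 2 and 3 were inside the control range, and replicate 4 was above it. Insig2, the other retention protein, measured 321, 278, 368 and 293 CPM in AdGFP and 356, 307, 293 and 326 CPM in AdNAMPT, so all 4 AdNAMPT livers were inside the control range on this scale, with replicate 3 just below it after TMM scaling. The log2 ratio of Insig1 to Insig2, which does not depend on depth or scaling, was 0.07, 0.47, -0.43 and 0.16 in AdGFP and -1.22, 0.18, 0.38 and 0.59 in AdNAMPT. Replicate 1 of AdNAMPT was below the other 7 livers. The means, 0.07 (SD 0.37) and -0.02 (SD 0.82, n = 4 each), differed by -0.08 (exact two-sided permutation test over 70 assignments, p = 0.914, where the smallest possible p was 0.0286).

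Over the 21 enzymes and the 7 other genes, the AdNAMPT range enclosed the AdGFP range for 16 and 2, the SD was larger in AdNAMPT for 20 and 3, and AdNAMPT replicate 1 was the lowest liver for 19 and 3. The difference between these classes was not tested. The 3 genes of sterol transport and receptor turnover spanned 1.41-fold to 1.51-fold over the 8 livers after scaling. Stard4, a carrier of cholesterol between membranes, measured 94.3, 79.5, 70.8 and 81.7 CPM in AdGFP and 67.5, 68.7, 80.7 and 86.2 CPM in AdNAMPT, with a log2 fold change of -0.20 (SE 0.11, limma, adjusted p = 0.592). Mylip, a ubiquitin ligase that marks lipoprotein receptors for breakdown and is driven by LXR rather than SREBP2, measured 13.1, 12.4, 16.5 and 11.8 CPM in AdGFP and 14.99, 14.2, 15.1 and 12.7 CPM in AdNAMPT. It was the one gene whose AdGFP range enclosed the AdNAMPT range. Tmem97, a sterol-responsive membrane protein, spanned 53.6 to 55.6 CPM in AdGFP and 49.2 to 69.1 CPM in AdNAMPT.

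**Figure D5:**
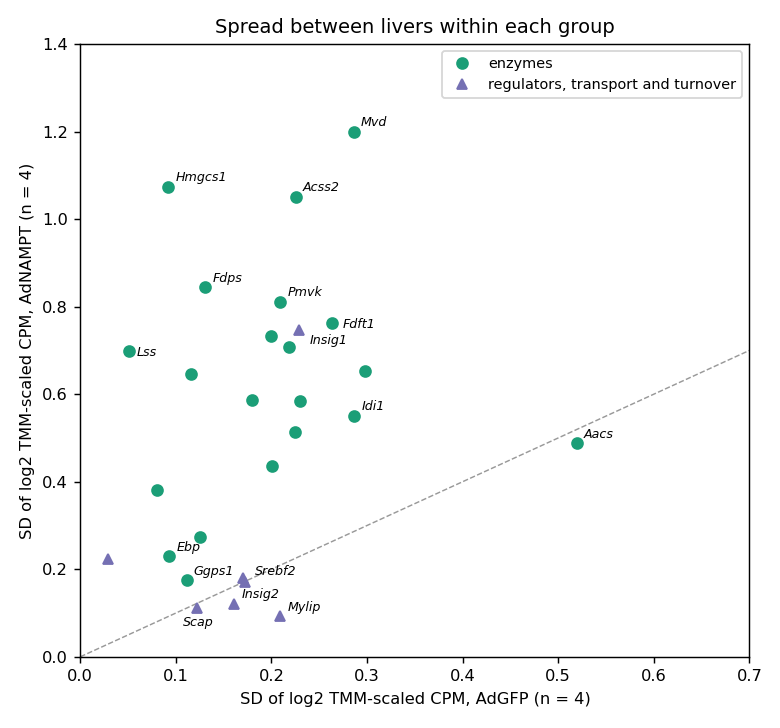
SD of log2 TMM-scaled CPM among the 4 AdGFP livers (x axis) and the 4 AdNAMPT livers (y axis) for each of the 28 genes, with enzymes as circles, the other genes as triangles and equality as the dashed line. Above the line lie 23 genes, led by Mvd, Hmgcs1 and Acss2, and Aacs, Srebf2, Scap, Insig2 and Mylip lie at or under it.

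Because the livers of AdNAMPT lay on both sides of the controls, the direction of the group difference turned on which were included. Without AdNAMPT replicate 3, 10 of the 28 genes had an unadjusted p under 0.05, all lower in AdNAMPT, with a median log2 fold change of -0.25 (12.1% of all genes under that p). Without replicate 4 the count was 11, again all lower, with a median of -0.25 (11.3%). Without replicate 1 or without replicate 2 the count was 2 each, Aacs and Acss2, both higher, and the medians were 0.04 and 0.07 (10.5% and 10.4%). None of these fits gave an adjusted p of at most 0.05 for any of the 28 genes (limma). All 10 genes of the first of these fits (Cyp51, Dhcr7, Fdft1, Hmgcs1, Hsd17b7, Msmo1, Mvk, Sqle, Stard4 and Tm7sf2) were in the second, which added Nsdhl.

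The genes of related pathways give the setting. Of 15 fatty acid synthesis genes under SREBP1c, 14 had a log2 fold change above 0, with a median of 0.49, and none passed the adjusted threshold (limma, smallest adjusted p = 0.453). Their sum was 6306, 27682, 13741 and 11078 CPM in AdGFP and 5475, 20076, 38247 and 31943 CPM in AdNAMPT. The sum spanned 4.39-fold in AdGFP and 6.99-fold in AdNAMPT, and Scd1 made up much of it. Per gene, the median SD of log2 values was 0.53 in AdGFP and 1.05 in AdNAMPT, beside 0.19 and 0.57 for the 28. As for the 28, the AdNAMPT range enclosed the AdGFP range for most of the 15, namely 12 (26% of all genes). The SD was larger in AdNAMPT for 13 (59.6%). AdNAMPT replicates 3 and 4 were above every control for 14 (23.1%) and 11 (22.4%). AdNAMPT replicate 1 was below every control for 12 of the 15 (29.7%). Replicate 2 was so for none of them (21.3%), whereas it was below every control for 19 of the 28. Scd1, the stearoyl-CoA desaturase, measured 1949, 18115, 6551 and 5123 CPM in AdGFP and 2630, 13264, 22888 and 19071 CPM in AdNAMPT (log2 fold change 1.29, SE 0.65, limma, adjusted p = 0.563). Mid1ip1, a partner of acetyl-CoA carboxylase, measured 44.1, 65.7, 25.8 and 52.9 CPM in AdGFP and 45.0, 77.7, 83.1 and 76.6 CPM in AdNAMPT (0.70, SE 0.26, adjusted p = 0.453). The difference between the fatty acid genes and the 28 was not tested.

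Genes that handle sterols under other control, or that act on SREBP2, were also counted, without a test against the 28. Among 9 LXR target genes the AdNAMPT range enclosed the AdGFP range for 1, against 26% of all genes. Their median SDs were 0.19 in AdGFP and 0.14 in AdNAMPT. Summed, they measured 905, 980, 942 and 1038 CPM in AdGFP and 1308, 1224, 1016 and 1020 CPM in AdNAMPT. AdNAMPT replicates 1 and 2 were thus above every control for this sum, and replicates 3 and 4 inside the control range. Log2 fold changes of the 9 ran from -0.21 to 0.94, with 4 above and 5 below 0, and none passed the adjusted threshold (limma). Abcg5 and Abcg8, which form the pump that sends sterols into bile, had log2 fold changes of -0.21 each (SE 0.10 and 0.09), and their adjusted p-values (limma) were 0.513 and 0.492. Abcg8 measured 92.5, 71.9, 101.3 and 85.9 CPM in AdGFP and 83.7, 79.6, 83.2 and 83.3 CPM in AdNAMPT, and Abcg5 89.5 to 123 CPM and 89.6 to 108 CPM. Of 10 genes for SREBP processing and sterol-regulated degradation, 3 were above and 7 below 0, none with an unadjusted p under 0.05. Mbtps1 and Mbtps2, the Golgi proteases that release SREBP2, had log2 fold changes of -0.12 (SE 0.06) and -0.23 (SE 0.15), and Mbtps1 lay between 53.2 and 58.1 CPM in all 8 livers.

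The side branches complete the list. Of 13 isoprenoid branch genes, 8 were above and 5 below 0, with none past the adjusted threshold (limma). AdNAMPT replicate 1 was below every control for 4 of the 13, near the share of all genes (29.7%). Srd5a3, which makes dolichol for protein glycosylation, measured 4.51, 5.30, 5.67 and 6.36 CPM in AdGFP and 7.25, 6.62, 8.65 and 7.37 CPM in AdNAMPT. The AdNAMPT livers were above the controls by a small margin before scaling, and the groups overlapped after TMM scaling (log2 fold change 0.36, SE 0.14, limma, adjusted p = 0.465). Pggt1b, a prenyl transferase subunit, had a log2 fold change of -0.20 (SE 0.09, limma, adjusted p = 0.511). Of 4 electron donors to the sterol oxidases, Cyb5r3, the cytochrome b5 reductase, had 0.32 (SE 0.14, adjusted p = 0.503) and Cyb5a, cytochrome b5, -0.27 (SE 0.08, adjusted p = 0.382). Cyb5a measured 1456 to 1852 CPM in AdGFP and 1440 to 1529 CPM in AdNAMPT.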

How the data were processed

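Livers of 8 db/db mice were sequenced by the study, 4 per group, 1 library a mouse. Groups were taken from the labels and replicate numbers from the sample titles. The authors' deposited tables hold, per Ensembl gene, a raw read count, CPM and RPKM, and the deposited CPM and RPKM follow from the counts of the same library. The authors' processing notes name STAR 2.4.0b, featureCounts 1.4.5 and GRCm38, and the study's methods describe uniquely aligned, unambiguous single reads. Whether counting used strand is not given in the sources used here. The labels name Ribo-Zero and the methods poly-A selection.

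From the counts, 355 ribosomal RNA features were removed, genes over 1 CPM in at least 3 libraries were kept (12270), and TMM factors (edgeR 4.0.16) entered limma 3.58.1 (voomWithQualityWeights, lmFit, eBayes), the design of the study's methods. Adjusted p-values are Benjamini-Hochberg over all genes tested, with a threshold of 0.05. The scripts were tested on simulated data. Printed levels are deposited CPM. Counts of livers above or below others use TMM-scaled CPM. Library totals of 12006713 to 19879814 counts put a floor of 3 counts at 0.151 to 0.25 CPM, for counting error only. P-values set the group difference against the spread between these mice, and none tests a difference in spread. No batch is labelled.

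All 28 genes are named. Of each related list, genes past the threshold are named and, where fewer than 2 passed, those with the smallest unadjusted p up to 2. Of marker lists the summed CPM is given. The 28 genes, the related lists and the tests were chosen with earlier results of these data known. Gene names came from GENCODE M21, promoters from RefSeq GRCm38.p6. The alternatives were the edgeR quasi-likelihood and exact tests, DESeq2 1.42.0, no sample weights, other scalings and filters, a replicate block, GC correction and leaving out each library.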

Additional observations from a re-analysis of the deposited data

Results flagged for a closer look

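In 1 of 58 groups of 4 values examined over the 28 genes and the ratio of Insig1 to Insig2, a single liver stood apart by Dixon's criterion for the gap to the nearest value divided by the range. Dhcr7, the reductase of the last step to cholesterol, measured 81.7 CPM in AdGFP replicate 2, against 53.6 to 58.0 CPM in the other AdGFP livers, a gap of 0.846 of the range. Chance flags about 1 in 20 such groups, or 2.9 of the 58. Leaving out libraries in turn, the log2 fold change of Dhcr7 ran from -0.57 to 0.050.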

How the results depend on the processing

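No gene of the 28 passed the adjusted threshold under any of the 20 alternatives, and in the 12 that kept all libraries Aacs alone had an unadjusted p under 0.05. Leaving out libraries in turn, the median over the 28 genes ran from -0.25 to 0.07, the count with an unadjusted p under 0.05 from 1 to 11, the count of genes whose groups did not overlap from 0 to 1 (7.35% to 9.51% of all genes) and the Insig1 to Insig2 difference from -0.29 to 0.32. The count of genes whose AdNAMPT range enclosed the AdGFP range ran from 9 to 20 and that of larger SDs in AdNAMPT from 22 to 25. The settings for these last counts, and the thinning of counts, were chosen after seeing the data. Log2 fold changes that turned in sign when a library was left out ran from -0.26 to 0.18 for Acat2, -0.11 to 0.70 for Acss2, -0.76 to 0.11 for Hmgcs1, -0.18 to 0.53 for Pmvk, -0.39 to 0.53 for Mvd, -0.24 to 0.16 for Idi1, -0.25 to 0.50 for Fdps, -0.015 to 0.054 for Ggps1, -0.28 to 0.28 for Lss, -0.40 to 0.093 for Nsdhl, -0.31 to 0.014 for Hsd17b7, -0.091 to 0.039 for Ebp, -0.34 to 0.15 for Sc5d, -0.57 to 0.050 for Dhcr7, -0.14 to 0.098 for Srebf2, -0.17 to 0.24 for Insig1, -0.10 to 0.094 for Mylip and -0.086 to 0.078 for Tmem97. Other settings turned further values near 0, none past the threshold, and the cause was not tested. Insig1 was -0.043 by the edgeR quasi-likelihood and exact tests, -0.042 by DESeq2, -0.18 without sample weights and -0.077 with no filter. Tmem97 was -0.0016, -0.0013, -0.014 and -0.011 by quasi-likelihood, exact, unweighted and unfiltered fits and -0.00092 with GC correction. Mvd was -0.083 unweighted, -0.11 unfiltered, -0.0013 with GC correction and -0.011 with thinned counts, Lss -0.065 unweighted and -0.061 unfiltered, and Srebf2 0.0017 unweighted. With library size only, which moved the median of all genes to 0.086, values were 0.053 for Srebf2, 0.041 for Acat2, 0.047 for Idi1, 0.056 for Ebp and 0.058 for Mylip.

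Deviations of same-numbered AdGFP and AdNAMPT libraries correlated at 0.23, -0.052, 0.22 and 0.00036. AdGFP replicates 1 and 3 correlated best with their own number, and AdGFP replicates 2 and 4 with another number. Whether same-numbered libraries share more than a number was not tested. The replicate block gave 41 calls over all genes against 34, none among the 28, with a median of -0.046. Under the block Insig1 was -0.041, Srebf2 0.054 and Idi1 0.091, and with GC correction as well Insig1 was -0.029 and Idi1 0.11. For the Insig1 to Insig2 difference this pairing allows no exact sign-flip p under 0.125.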
